A study of Rattus norvegicus with 10 samples.

Results

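Expression of 9 genes that govern mineral deposition and the handling of phosphate and pyrophosphate was examined in rat tendon-derived stem cells (TDSCs) treated with farnesol during osteogenic induction. The 9 genes, Alpl, Enpp1, Phospho1, Smpd3, Slc20a1, Slc20a2, Xpr1, Phex and Mgp, were taken by symbol from a table of 23051 genes, and each symbol matched 1 gene. TDSCs are progenitor cells isolated from tendon, and the study concerns bone that forms inside injured tendon (heterotopic ossification). RNA was sequenced on day 3 of induction in 5 libraries with 50 µM farnesol, an isoprenoid alcohol, and 5 control libraries under induction alone. The sample titles call the controls untreated, while their library names refer to a vehicle. Replicates are numbered as biological, but separate animals or cultures are not named, so the p-values reflect variation between these samples alone, and that variation may be technical.

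Bone mineral starts to form in matrix vesicles, small membrane sacs that bud from osteoblasts and chondrocytes and gather calcium and phosphate. Inorganic pyrophosphate blocks crystal growth. ENPP1 makes it outside the cell from ATP, ANKH releases ATP and pyrophosphate from the cell, and tissue-nonspecific alkaline phosphatase, encoded by Alpl, splits pyrophosphate into phosphate. Inside the vesicle SMPD3 and PHOSPHO1 free phosphate from membrane lipid, SLC20A1 and SLC20A2 carry phosphate into cells, and XPR1 carries it out. MGP, a matrix protein that needs vitamin K, holds back calcification of soft tissue, and PHEX, a peptidase of bone cells, acts on matrix peptides, and its loss raises the phosphate hormone FGF23.

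The libraries held 41.8 to 47.1 M counts. Values are given as CPM (counts for each 1 M counts, scaled to library size) or, to set genes of different length side by side, as FPKM (the authors' fragments per kilobase and M reads). Of the 9 genes, 7 passed the filter on low counts and were tested within a fit over 12893 genes (edgeR's quasi-likelihood test, Benjamini-Hochberg adjustment, threshold 0.05). Smpd3 and Phex did not pass it. Libraries within a group were spread along 1 direction, called the library axis here, that held 36.8% of the variance within groups. The sign of the score was set so that farnesol libraries scored higher (mean 21.6) than control libraries (mean -21.6). Control 3 (4.06) and farnesol 5 (59.9) lay farthest from the rest of their groups. The score and the related slope of each library on gene length (longer genes lower in libraries with a high score) were used as covariates in further fits, and a call that ended there is given as such. Both were computed from values centred over all libraries, so they also hold the difference between the groups. For a call that ended there, farnesol and the covariate cannot be told apart. A trend on gene length, removed from the counts in a further fit, was computed from the same centred values. That fit therefore also takes out any group difference that follows gene length.

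With farnesol, Mgp and Slc20a1 rose, and Enpp1, Xpr1 and Alpl fell, while Phospho1 and Slc20a2 did not pass the test. Only the Enpp1 call stayed in all 22 alternative fits, as given below. These 5 calls among 7 tested genes stand beside 59.5% of all tested genes called. The 2 that rose stand beside 29.4% of all genes called higher, and the 3 that fell beside 30.1% called lower, so the share of calls was near that of the whole table. The 2 groups did not overlap for 3 of the 7 genes, against 40.7% of all tested genes: Mgp was higher without overlap, as were 19.8% of all tested genes, and Enpp1 and Xpr1 lower, as were 20.9%. In bulk RNA, fewer cells of a type and less RNA per cell cannot be told apart.

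**Figure D1:**
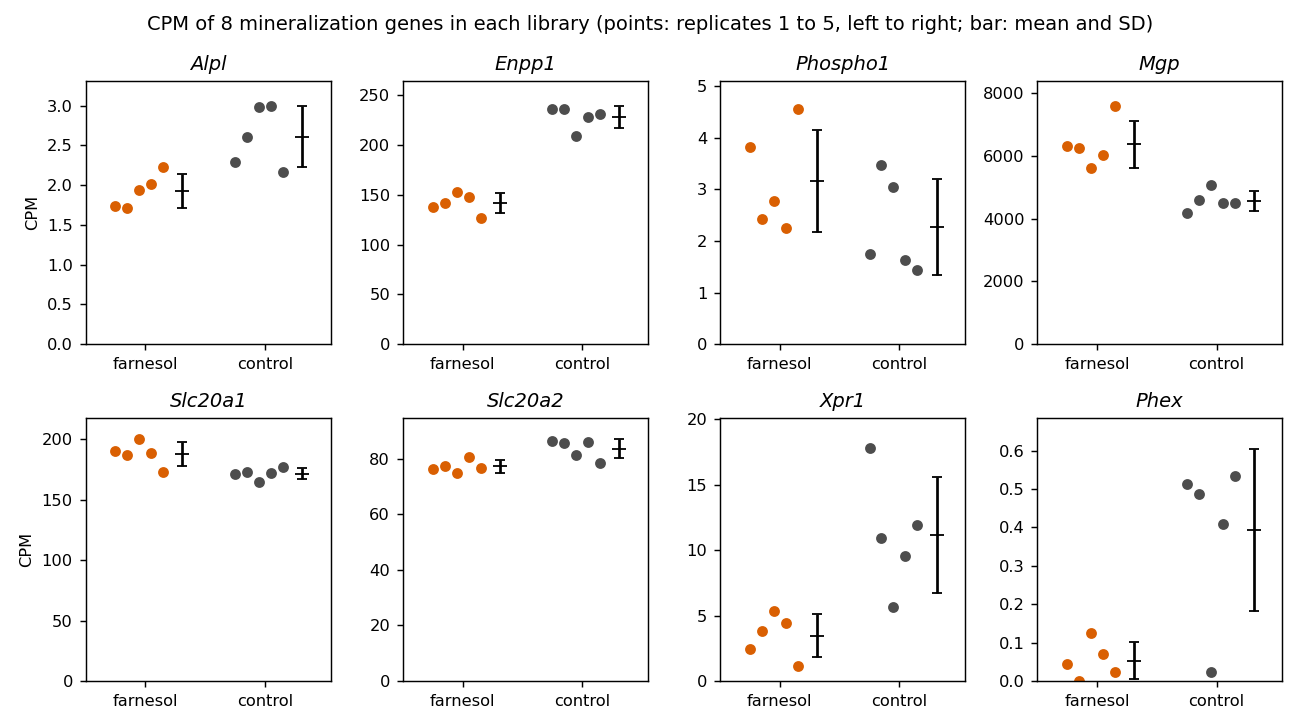
CPM (y axis, from 0) of 8 of the 9 genes in each of the 5 farnesol and 5 control libraries (points, replicates 1 to 5 from left to right), with the mean and SD of each group as a bar. Mgp is higher and Enpp1 and Xpr1 are lower in every farnesol library than in any control library, and Phex is near 0 in all libraries except 4 of the controls.

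The genes covered a wide range of levels. Per length, Mgp averaged 6424 ± 636 FPKM in farnesol, rank 5 of all genes, and 4557 ± 331 FPKM in control, rank 7 (SD, n = 5 each). Slc20a1 followed at 60.9 ± 4.03 FPKM in farnesol and 55 ± 1.43 FPKM in control, then Enpp1 at 36.3 ± 3.05 FPKM in farnesol and 57.5 ± 2.85 FPKM in control, so that these 2 genes did not differ in level beyond their spread in control but did in farnesol. Slc20a2 came next at 19.8 ± 0.684 FPKM in farnesol and 21.1 ± 0.864 FPKM in control. Xpr1, Phospho1 and Alpl were much lower, at 0.947 ± 0.46, 0.9 ± 0.266 and 0.798 ± 0.0798 FPKM in farnesol, where they did not differ beyond their spread, and at 3.01 ± 1.18, 0.637 ± 0.262 and 1.07 ± 0.158 FPKM in control, where Xpr1 lay above the other 2 in every library. Phex and Smpd3 were lowest, at 0.0125 ± 0.0117 and 0.00447 ± 0.00539 FPKM in farnesol. In control, Phex was at 0.0916 ± 0.0494 FPKM and Smpd3 had no counts.

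Enpp1, the enzyme that makes extracellular pyrophosphate, lies on chromosome 1 (20698764 to 20763715, plus strand, build rn7 per the submitters' processing notes). It was at 138, 142, 153, 148 and 127 CPM in farnesol libraries 1 to 5 and at 236, 236, 209, 228 and 231 CPM in control libraries 1 to 5. The groups were far apart, and control 3 was the lowest of the controls. Enpp1 fell 1.61-fold (log2 fold change -0.68, SE 0.06; edgeR adjusted p = 3.29e-06). It stayed called with the library axis as a covariate (-0.50, adjusted p = 1.22e-10, edgeR), with the length slope (-0.45, adjusted p = 1.19e-05, edgeR) and without any 1 library (highest adjusted p = 4.00e-05, edgeR). Farnesol 3 and control 3, whose axis scores were close (-0.074 and 4.06), had 153 CPM and 209 CPM of Enpp1. The pair is 1 library of each group and the scores also hold the group difference, so it does not tell farnesol from the axis.

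Alpl, which encodes the phosphatase that removes pyrophosphate and is a standard marker of the osteoblast path, lies on chromosome 5 (149951409 to 150006446, minus strand). Counts were low, 78 to 99 per farnesol library and 101 to 132 per control library. Its levels were 1.74, 1.71, 1.94, 2.02 and 2.23 CPM in farnesol libraries 1 to 5 and 2.29, 2.61, 2.98, 3 and 2.16 CPM in control libraries 1 to 5. Only farnesol 5 reached into the control range, above control 5. Alpl fell 1.35-fold (log2 fold change -0.44, SE 0.15; edgeR adjusted p = 0.0226). It no longer passed without farnesol 1 (adjusted p = 0.0527, edgeR), farnesol 2 (adjusted p = 0.0525, edgeR), control 3 (adjusted p = 0.052, edgeR) or control 4 (adjusted p = 0.0632, edgeR). With the axis as a covariate the log2 fold change was -0.69 (adjusted p = 0.0439, edgeR) and with the length slope -0.81, no longer called (adjusted p = 0.099, edgeR).

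RNA for the enzyme that makes pyrophosphate was thus lower, and so was RNA for the enzyme that removes it. The Alpl call rested on low counts and ended in several of the fits above, while the Enpp1 call stayed in all of them. Protein and enzyme activity were not measured in these libraries. Per length, the Enpp1 level was 35.1 to 51.3 times that of Alpl in farnesol libraries and 43.2 to 66 times in control libraries. The mean of this ratio was 45.9 ± 6.38 in farnesol and 55 ± 10 in control (SD, n = 5 each), and the ranges overlapped between 43.2 and 51.3. In both groups the lowest ratio belonged to the library with the highest axis score, farnesol 5 and control 3.

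Phospho1, the phosphatase that frees phosphate from phosphocholine inside matrix vesicles, lies on chromosome 10 (80760792 to 80770342, plus strand) and had 96 to 202 counts per farnesol library and 67 to 157 per control library. Its levels were 3.83, 2.43, 2.78, 2.25 and 4.56 CPM in farnesol libraries 1 to 5 and 1.74, 3.48, 3.05, 1.64 and 1.43 CPM in control libraries 1 to 5. Controls 2 and 3 lay above 3 of the farnesol libraries. The difference of 0.49 on the log2 scale (SE 0.28; edgeR adjusted p = 0.143) did not pass, and it turned to -0.18 in the axis fit and -0.40 in the length slope fit, passing in neither. Without control 2 it passed (0.69, adjusted p = 0.0477, edgeR). Within groups Phospho1 varied more than 91.3% of tested genes (SD of log2 CPM 0.50, against a median of 0.17).

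Smpd3, the neutral sphingomyelinase whose loss in mice leaves bone and cartilage poorly mineralized, was close to absent at this depth. Counts were 1, 3, 0, 1 and 0 in farnesol libraries 1 to 5 and 0 in all 5 control libraries. All 10 values lie at or under the limit of 3 counts that a count of 0 allows (0.0637 to 0.0717 CPM, counting error only), so no fold is given. Part of its span overlaps Prmt7 on the other strand, and no source used here says whether reads were counted by strand.

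Slc20a1 and Slc20a2, the sodium-dependent phosphate importers PiT-1 and PiT-2, were both well above the exporter in level. Slc20a1 (chromosome 3, 116427098 to 116441051, plus strand) was at 190, 187, 200, 189 and 173 CPM in farnesol libraries 1 to 5 and at 171, 173, 165, 172 and 177 CPM in control libraries 1 to 5. Farnesol 5 lay inside the control range and the other 4 above it. The rise was 1.09-fold (log2 fold change 0.13, SE 0.05; edgeR adjusted p = 0.0374). It was 0.24 with the axis (adjusted p = 1.27e-04, edgeR) and 0.26 with the length slope (adjusted p = 0.00798, edgeR). It failed to pass in 9 of 10 fits that left out 1 library (highest adjusted p = 0.0829, edgeR) and passed only without farnesol 5 (0.16, adjusted p = 0.00359, edgeR).

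Slc20a2 (chromosome 16, 69460462 to 69521711, minus strand) was at 76.4, 77.4, 74.7, 80.7 and 76.6 CPM in farnesol libraries 1 to 5 and at 86.5, 85.7, 81.4, 85.8 and 78.5 CPM in control libraries 1 to 5. Control 5 lay inside the farnesol range. The difference of -0.11 on the log2 scale (SE 0.05; edgeR adjusted p = 0.0565) did not pass, and it was 0.04 with a length trend removed. It passed without control 5 (-0.14, adjusted p = 0.0404, edgeR) and with DESeq2 (adjusted p = 0.0267). Per length, Slc20a1 was 3.08 ± 0.203 times Slc20a2 in farnesol and 2.6 ± 0.145 times in control (SD, n = 5 each). The ratio was 2.85 to 3.38 in farnesol and 2.5 to 2.86 in control, so the ranges met only at farnesol 5 and control 5. Both importers varied little within groups, with SDs of log2 CPM of 0.06 for Slc20a1 and 0.05 for Slc20a2.

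Xpr1, which encodes the phosphate exporter, had the widest separation of means among the 7 tested genes and also the widest spread within groups (SD of log2 CPM 0.74). It lies on chromosome 13 (67446380 to 67585946, minus strand) and had 52 to 253 counts per farnesol library and 236 to 798 per control library. Its levels were 2.45, 3.83, 5.33, 4.46 and 1.17 CPM in farnesol libraries 1 to 5 and 17.8, 10.9, 5.67, 9.53 and 11.9 CPM in control libraries 1 to 5. The groups did not overlap, but farnesol 3 and control 3 nearly met. Xpr1 fell 3.24-fold (log2 fold change -1.69, SE 0.35; edgeR adjusted p = 0.00133), and passed without any 1 library (highest adjusted p = 0.00503, edgeR). Fitted beside the library axis, the difference was -0.18 (SE 0.16; edgeR adjusted p = 0.48), and beside the length slope it turned to 0.25 (SE 0.21; edgeR adjusted p = 0.613), so neither passed. Removing a length trend from the counts left it called (-1.56, adjusted p = 0.0014, edgeR).

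Within each group Xpr1 followed the axis score. Ordered by rising score, farnesol libraries 3, 2, 4, 1 and 5 had 5.33, 3.83, 4.46, 2.45 and 1.17 CPM, with 1 inversion between libraries of nearly equal score. In the same order, control libraries 1, 5, 2, 4 and 3 had 17.8, 11.9, 10.9, 9.53 and 5.67 CPM, with none. In the fit with group and axis, Xpr1 changed by -1.10 (log2, SE 0.09) for each SD of the score, a size exceeded by few genes (99.5% of tested genes had a smaller one), and the group means lie 1.46 SD apart. Farnesol and the axis cannot be told apart for Xpr1 in this design.

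**Figure D2:**
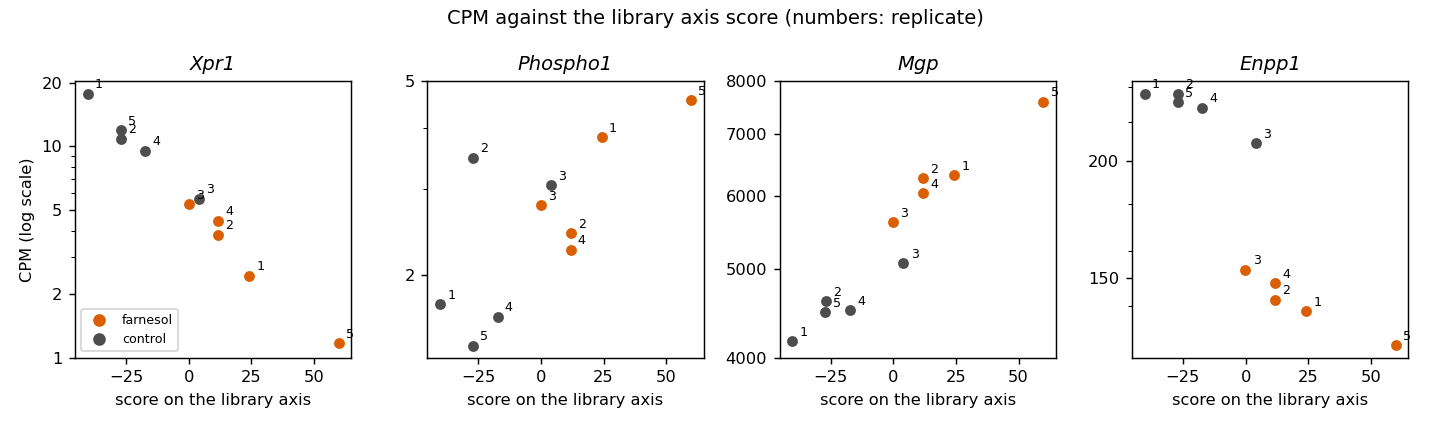
CPM on a log scale (y axis) of Xpr1, Phospho1, Mgp and Enpp1 in each library against the library's score on the library axis (x axis, no unit), farnesol in orange and control in grey, numbered by replicate. Xpr1 of both groups falls along 1 line, with 1.17 CPM in farnesol 5 at the high end of the axis and 17.8 CPM in control 1 at the low end. Enpp1 is at 153 CPM in farnesol 3 and 209 CPM in control 3, whose scores are close. The pair is 1 library of each group and the scores also hold the group difference, so it does not tell farnesol from the axis.

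The ratio of importer to exporter RNA moved with Xpr1. Per length, Slc20a1 and Slc20a2 together were 57.6 to 236 times Xpr1 in farnesol libraries and 16 to 48 times in control libraries. The ratio averaged 112 ± 73.4 in farnesol and 28.8 ± 11.9 in control (SD, n = 5 each). Farnesol 5, the library at the high end of the axis, held the highest ratio at 236, and control 3 the highest of the controls at 48. Farnesol 3 held the lowest farnesol ratio at 57.6. As for Xpr1, farnesol and the axis cannot be told apart for this ratio.

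**Figure D3:**
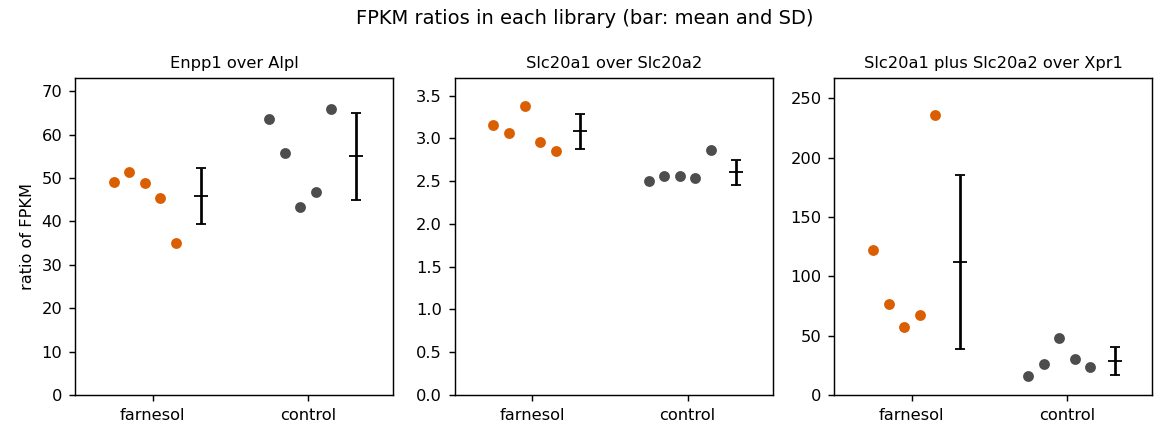
Ratios of FPKM (y axis, from 0, no unit) in each farnesol and control library (points, replicates 1 to 5 from left to right), with the group mean and SD as a bar: Enpp1 over Alpl, Slc20a1 over Slc20a2, and both importers together over Xpr1. The importer to exporter ratio is 57.6 to 236 in farnesol and 16 to 48 in control, while the Enpp1 to Alpl ratio overlaps between groups. For the importer to exporter ratio, as for Xpr1, farnesol and the library axis cannot be told apart.

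Mgp, the vitamin K-dependent inhibitor of calcification, lies on chromosome 4 (169766279 to 169769667, minus strand) and held 0.64% ± 0.0633 of all counts in farnesol and 0.454% ± 0.033 in control (SD, n = 5 each). Its levels were 6315, 6268, 5618, 6044 and 7595 CPM in farnesol libraries 1 to 5 and 4169, 4608, 5071, 4508 and 4485 CPM in control libraries 1 to 5. Every farnesol library lay above every control library, with farnesol 3 the lowest of its group and control 3 the highest of its own. Mgp rose 1.39-fold (log2 fold change 0.48, SE 0.08; edgeR adjusted p = 3.35e-04). It stayed called with the axis as a covariate (0.20, adjusted p = 1.31e-04, edgeR) and with a length trend removed (0.23, adjusted p = 6.33e-04, edgeR), at a smaller size. Beside the length slope it did not pass (0.11, adjusted p = 0.322, edgeR).

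Phex, the peptidase of osteoblasts and osteocytes that is lost in X-linked hypophosphataemia, lies on chromosome X (37610760 to 37854469, plus strand) and was nearly silent. It had 2, 0, 6, 3 and 1 counts in farnesol libraries 1 to 5 and 23, 22, 1, 18 and 25 counts in control libraries 1 to 5, in sum 12 counts in farnesol and 89 in control. Control 3 stood with the farnesol libraries and the other 4 controls apart from them. In a fit with no filter on low counts Phex fell by 2.83 on the log2 scale (SE 0.76; edgeR adjusted p = 0.00643), a value that rests on few counts.

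**Figure D4:**
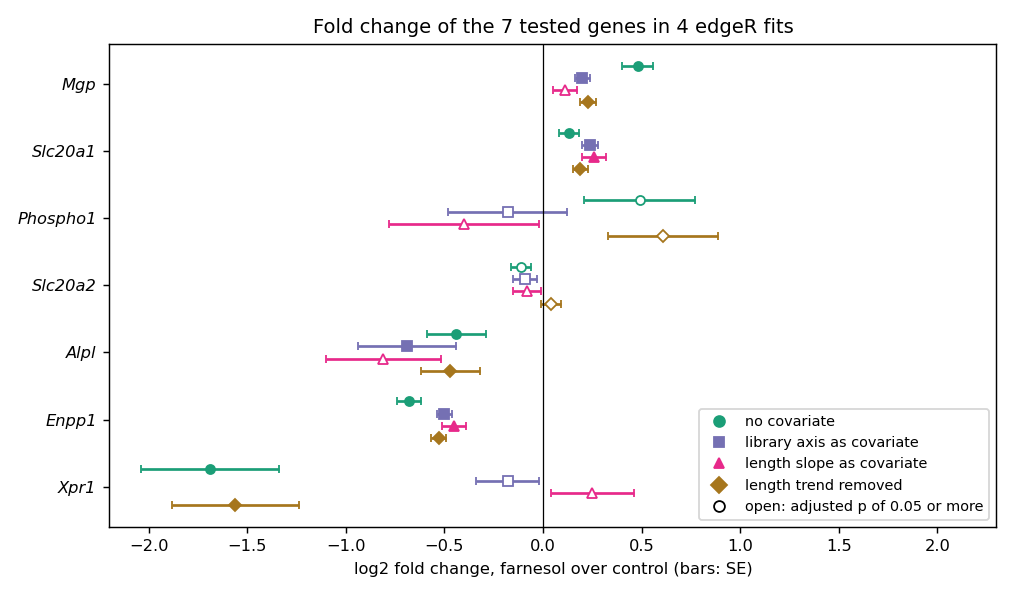
Log2 fold change of farnesol over control (x axis, bars are SE) of the 7 tested genes (y axis) in 4 edgeR fits, with filled symbols for an adjusted p under 0.05 and open symbols otherwise. Enpp1 and Slc20a1 are called in all 4 fits, while Xpr1 goes from -1.69 with no covariate to -0.18 beside the axis and 0.25 beside the length slope.

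With the axis in the fit, 4 of the 7 tested genes were called, beside 20.6% of all tested genes. Mgp and Slc20a1 were higher (8.90% of all) and Alpl and Enpp1 lower (11.7%). The length slope left 2 calls, beside 7.57% of all tested genes, with Slc20a1 higher (3.02%) and Enpp1 lower (4.55%). Removing a length trend left 5 calls, beside 56.6%, with 2 higher (32.1%) and 3 lower (24.5%).

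Promoter sequence was available for 3 of the 9 genes, Alpl, Phospho1 and Xpr1. The 250 bases before the start of Alpl (GRCr8, chr5:155289786-155290035, minus strand) and of Xpr1 (GRCr8, chr13:70136165-70136414, minus strand), the pair among these that fell, are shown from RefSeq, 5′ to 3′ along the gene. Capitals mark matches on either strand to the GC box GGGCGG or to the cAMP response element core TGACGT.
Alpl: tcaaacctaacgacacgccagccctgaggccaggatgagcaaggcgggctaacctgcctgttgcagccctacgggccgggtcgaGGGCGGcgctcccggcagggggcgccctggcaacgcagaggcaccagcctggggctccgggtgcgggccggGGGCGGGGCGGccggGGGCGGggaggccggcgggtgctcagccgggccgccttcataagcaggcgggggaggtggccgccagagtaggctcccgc
Xpr1: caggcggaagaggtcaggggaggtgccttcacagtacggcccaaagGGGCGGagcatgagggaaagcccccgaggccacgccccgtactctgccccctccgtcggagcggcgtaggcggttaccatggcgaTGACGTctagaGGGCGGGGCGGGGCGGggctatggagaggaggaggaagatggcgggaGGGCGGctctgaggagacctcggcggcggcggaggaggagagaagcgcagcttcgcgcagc
All 3 windows are rich in G and C, at 76.0% in Alpl, 70.0% in Xpr1 and 76.0% in Phospho1, which did not pass the test. The median over 33469 rat promoters was 51.2%. Alpl and Xpr1 each hold 25 CpG pairs and Phospho1 holds 36, against a median of 5. The GC box, bound by Sp1-type factors, matched at 4 places in Alpl, 5 in Xpr1 and 3 in Phospho1, where matches can share bases, and 30.5% of all promoters held at least 1. The core TGACGT matched once in Xpr1 and once in Phospho1, and 6.95% of all promoters held it. The RUNX letters TGTGGT, held by 14.5% of all promoters, matched in none of the 3 windows. Neither did the core promoter letters TATAAA, held by 12.9%, nor the sterol regulatory element TCACNCCAC, held by 0.974%. The letters CCAAT matched once in Phospho1, against 34% of all promoters. Matches are a description of the letters and not of binding.

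By the profile of log2 CPM over the 10 libraries, each centred on the gene's own mean, the closest of 9366 genes to each called gene were named by the root-mean-square difference. Enpp1 lay closest to Lrrfip1 (difference 0.031) and Vcl, which encodes vinculin (0.037). Xpr1 lay closest to Slk, a kinase (0.155), and Crk, an adaptor protein (0.192). Slk had 9.77 ± 4.08 CPM in farnesol and 31.8 ± 10.7 CPM in control (SD, n = 5 each). Its wide spread within groups follows from its choice by likeness to Xpr1. Mgp lay closest to Tagln2 (0.022) and Rps9, a ribosomal protein gene (0.023), Slc20a1 to Ahcyl1 (0.022) and Pdia4 (0.028), and Alpl to Phlda1 (0.086) and Slco3a1 (0.094).

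The wider pathway was read from 5 lists beside a median log2 fold change of 0.01 over all tested genes, of which 29.4% were called higher and 30.1% lower. Beside the axis these shares were 8.90% and 11.7%, and beside the length slope 3.02% and 4.55%. Of 12 tested genes of pyrophosphate, ATP and adenosine handling 5 rose, 5 fell and 2 did not pass, with a median of 0.16. Ankh, which releases ATP and pyrophosphate, fell to 35.2 ± 3.27 CPM in farnesol, against 48.3 ± 5.09 CPM in control, or -0.46 on the log2 scale, and did not pass beside the axis (edgeR adjusted p = 0.0721) or the length slope (edgeR adjusted p = 0.72). Entpd1, which strips phosphate from ATP and ADP, was 2.09-fold lower, at 7.19 ± 1.17 CPM in farnesol and 15 ± 2.19 CPM in control, and Nt5e, which makes adenosine from AMP, 1.99-fold lower, at 5.5 ± 0.615 CPM in farnesol and 10.9 ± 1.38 CPM in control. Both passed with either covariate. Slc29a1, a nucleoside carrier, rose 2.01-fold, to 1198 ± 152 CPM in farnesol against 596 ± 31.4 CPM in control, and passed with either covariate. Adora2b, an adenosine receptor, also rose 2.01-fold but did not pass beside the length slope (edgeR adjusted p = 0.0987). In this list 2 rose and 4 fell beside the axis, and 1 rose and 3 fell beside the length slope.

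Of 7 tested genes of phosphate transport and its hormones 1 rose, 4 fell and 2 did not pass, with a median log2 fold change of -0.30. Stc1, stanniocalcin 1, a secreted protein tied to calcium and phosphate balance, fell 2.31-fold, to 52.3 ± 10.5 CPM in farnesol against 121 ± 17.5 CPM in control, and passed with either covariate (-0.64 and -0.47). Fam20c, the kinase that phosphorylates secreted matrix proteins, rose 1.67-fold but did not pass beside the length slope (edgeR adjusted p = 0.099). Vdr, the vitamin D receptor, was 1.81-fold lower and Kidins220, a membrane scaffold protein, 1.23-fold lower, and both calls ended with either covariate, where the Kidins220 difference was 0.01 beside the length slope. Slc34a2, Slc34a3, Fgf23 and Kl were at 0 in all 10 libraries, and Slc25a3 was not analysed here. Beside the axis 1 rose and 1 fell, and beside the length slope 0 rose and 1 fell.

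Of 11 genes of matrix vesicle lipids and annexins 7 rose, 3 fell and 1 did not pass, with a median log2 fold change of 0.30. Anxa2 and Anxa5, annexins found in matrix vesicles, rose 1.51-fold and 1.34-fold. Anxa2 passed with either covariate, and Anxa5 did not pass beside the length slope (edgeR adjusted p = 0.221). Asah1, the acid ceramidase, fell 1.87-fold and passed with either covariate, and Sgms1, a sphingomyelin synthase, fell 1.5-fold but did not pass beside the length slope (edgeR adjusted p = 0.389). Beside the axis 4 rose and 2 fell, and beside the length slope 1 rose and 1 fell.

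Of 8 tested mineral inhibitors and vitamin K genes 6 rose, 1 fell and 1 did not pass, with a median log2 fold change of 0.28. Ggcx, the carboxylase that activates MGP, rose 1.11-fold, to 138 ± 1.64 CPM in farnesol against 124 ± 2.77 CPM in control, but did not pass beside the length slope (edgeR adjusted p = 0.195). Vkorc1, which recycles vitamin K, rose 1.31-fold and Gas6, another vitamin K-dependent protein, 1.26-fold, and both calls ended with either covariate. Nqo1, a quinone reductase, rose 1.33-fold and passed with either. Spp1, osteopontin, a phosphoprotein that binds crystals and a substrate of PHEX, rose 1.12-fold, to 28899 ± 1817 CPM in farnesol against 25786 ± 304 CPM in control, and passed with either covariate (0.28 beside the axis and 0.30 beside the length slope). With a length trend removed it was at -0.01 and not called (adjusted p = 0.923, edgeR). Beside the axis 3 rose and 1 fell, and beside the length slope 2 rose and 1 fell.

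Among the 5 PHEX substrates and bone matrix genes 4 were tested, of which Spp1 rose and Ibsp fell, and the median log2 fold change was -0.14. Ibsp, bone sialoprotein, was at 2.95 ± 0.316 CPM in farnesol and 6.6 ± 0.358 CPM in control and passed with either covariate. Mepe, at 1.33 ± 0.505 CPM in farnesol and 1.18 ± 0.279 CPM in control, and Dmp1, at 0.201 ± 0.128 CPM in farnesol and 0.275 ± 0.0629 CPM in control, did not pass.

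**Figure D5:**
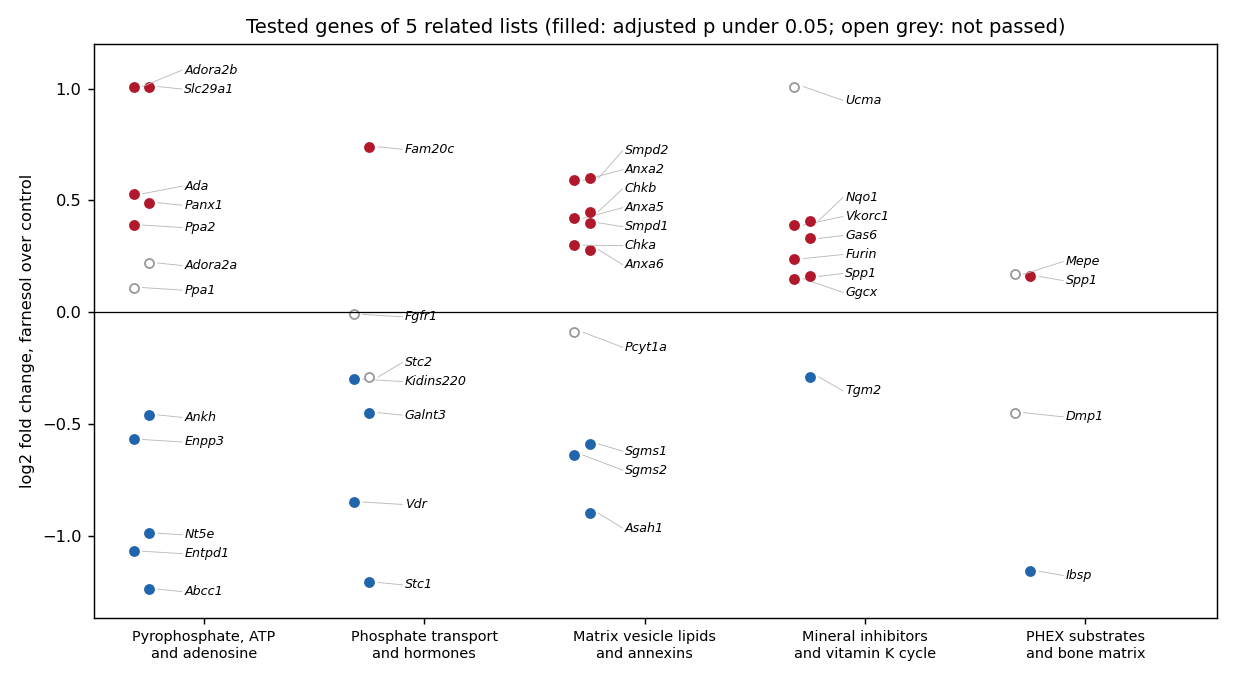
Log2 fold change of farnesol over control (y axis) of each tested gene in 5 related lists (x axis), red for called higher, blue for called lower and open grey for not passed at an adjusted p of 0.05. In the pyrophosphate, ATP and adenosine list 5 genes are called on each side of 0, and in the mineral inhibitor and vitamin K list 6 of 8 are called higher.

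Markers of cell state moved beside these genes. Counts called lower below can be read against 30.1% of all tested genes with no covariate, 11.7% beside the axis and 4.55% beside the length slope. Of 4 tested osteoblast markers, among them Alpl itself, 3 fell and 1 did not pass, against 2 lower beside the axis and 1 beside the length slope. Runx2, a transcription factor of the osteoblast path that holds most of the summed level of this list, was lower by the test with no covariate (-0.35, edgeR adjusted p = 0.0117). It was at 0.02 beside the axis (edgeR adjusted p = 0.914) and 0.12 beside the length slope (edgeR adjusted p = 0.686). Sp7 (0 to 8 counts) and Bglap (0 to 11 counts) were near 0. The list summed to 20.1 to 27.6 CPM in farnesol and 29.7 to 35.3 CPM in control.

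Of 6 tested tendon markers 4 fell, against 5 lower beside the axis and 3 beside the length slope, and Tnmd was near 0. Their summed level was 1766 to 1921 CPM in farnesol and 3671 to 3958 CPM in control, and most of that difference lay in Tnc, tenascin C, at 1320 CPM in farnesol and 3200 CPM in control. Thbs4, the other abundant one, was at 458 CPM in farnesol and 485 CPM in control and did not pass (edgeR adjusted p = 0.175). It was called lower beside the axis (-0.21, adjusted p = 3.39e-04, edgeR) and the length slope (-0.24, adjusted p = 0.0145, edgeR). Scx fell 1.65-fold, to 21.4 ± 4.34 CPM in farnesol against 35.3 ± 4.35 CPM in control. Both Scx and Tnc passed with either covariate. The Mkx call ended beside the axis and the length slope (edgeR adjusted p = 0.174 and 0.644).

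Of 9 tested contractile and mural markers 6 fell, with a summed level of 8211 to 10714 CPM in farnesol and 12414 to 14179 CPM in control. Beside the axis 8 were lower and beside the length slope 7, while removing a length trend left 6 lower and 1 higher. Cartilage markers summed to 10.2 to 14.8 CPM in farnesol and 22.3 to 24.8 CPM in control. Of 4 tested, Acan was lower in all these fits and Sox9 was higher, a call that ended beside the axis (edgeR adjusted p = 0.235) and the length slope (edgeR adjusted p = 0.681).

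Endothelial markers summed to 0.0875 to 0.779 CPM in farnesol and 0.443 to 0.846 CPM in control. Tek, the 1 tested, had low counts that overlapped, 3 to 22 per farnesol library and 15 to 37 per control library. It was called lower, and its call ended beside the axis (edgeR adjusted p = 0.736) and the length slope (edgeR adjusted p = 0.948). Leukocyte markers summed to 3.24 to 3.79 CPM in farnesol and 1.27 to 2.46 CPM in control. Of 2 tested, Cd68 rose, and its call ended beside the length slope (edgeR adjusted p = 0.194). Cdh5, Ptprc and Adgre1 were at 0 in all libraries. The part of these shifts in the values of the 9 genes was not tested.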

How the data were processed

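RNA of 5 farnesol and 5 control libraries was analysed, grouped by the sample titles. The authors deposited 1 table with raw read counts per gene and library and FPKM values of the same genes, per the file headers. Per the submitters' processing notes, the tools were StringTie, DESeq, HTSeq 0.9.1 and HISAT2 2.0.5 on rn7, without their roles. No source used here says whether counting used strand. Of 23052 rows, 1 repeat was removed. Libraries totalled 41.8 to 47.1 M counts. The limit for a count of 0 was set at 3 counts.

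The test used edgeR 4.0.16 under R 4.3.3 on the deposited counts (filterByExpr, TMM, robust glmQLFit and glmQLFTest, group only, Benjamini-Hochberg over 12893 genes). CPM uses TMM-scaled library sizes. SE is the log2 fold change divided by the square root of F. The direction of the library axis was principal component 1 of log2 CPM (prior count 2) centred within groups. Scores on it were taken from log2 CPM centred on each gene's mean over all 10 libraries, so they hold the difference between groups too. Length is the value implied by the deposited count and FPKM. The length slope is that of a library's log2 ratio on log2 length, and the length trend has 5 degrees of freedom. Both used ratios to each gene's mean over all 10 libraries, so the trend also holds any group difference that follows length. Steps were tested on simulated counts that held no library axis and no length trend, so that test does not bear on either. Lists and motifs were read with no set test. Within groups, libraries differed by more than sampling noise (chi-square per gene 3.95 to 116 over 20 pairs). FPKM ratios are descriptions with no test. Promoters are RefSeq sequences of build GRCr8. DESeq2 1.42.0 and limma 3.58.1 served as alternatives.

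The 9 genes, the lists, the covariates and the rule for named genes (the 9 genes, up to 4 genes of each list with the smallest p plus Ankh, Nt5e, Spp1, Ggcx and Fam20c, and the 2 nearest profiles at 5 CPM or more of each called gene) were chosen with earlier results of these data known.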

Additional observations from a re-analysis of the deposited data

Results flagged for a closer look

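Phex in control replicate 3 stood apart from the other 4 controls, with 1 count against 18 to 25. Its gap to the nearest control was 0.884 of the range of the group on the log2 scale, above the limit of 0.71 that Dixon's test sets for 5 samples. By chance about 1 in 20 groups is marked this way. Control 3 was also the control with the highest score on the library axis and the lowest Xpr1 and Enpp1 levels, and the cause was not tested.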

How the results depend on the processing

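Enpp1 kept its direction and its call in all 22 alternatives, with log2 fold changes of -0.72 to -0.64 without any 1 library. The count of called genes was 7671, against 2656 beside the library axis and 976 beside the length slope, and 6880 to 7904 without any 1 library. The number of the 9 genes called higher was 2, and 1 with no filter on low counts, beside the length slope, or with the replicate number as a block, and it was 1 to 2 without any 1 library. The number called lower was 3, and 1 with the length slope, 2 to 4 without any 1 library, where Phex is counted if it passed the filter, which it did only through its higher control counts and is no support. Directions turned for Phospho1 with the axis (-0.18) and the length slope (-0.40), for Xpr1 with the length slope (0.25) and for Slc20a2 with a length trend removed (0.042), none of them called there. The cause was not tested.

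No pairing by replicate number was seen: deviations of same-numbered libraries correlated at -0.40 to 0.05, and 0 of 5 correlated best with their own number. These deviations include the library axis, which held 36.8% of the variance within groups, so they cannot exclude a pairing. With the replicate number as a block 6409 genes were called, and Alpl (adjusted p = 0.0601, edgeR) and Slc20a1 (adjusted p = 0.133, edgeR) lost their calls. Leaving out control 3 and farnesol 5 together, chosen after seeing the data, left Mgp, Slc20a1, Enpp1, Xpr1 and Alpl called in the same directions and Phospho1 and Slc20a2 not called. Low counts limit Alpl, Phospho1, Phex and Smpd3, and also Xpr1 in farnesol, where farnesol 5 had 52 counts.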
